A study of Mus musculus with 3 samples.

Results

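The 7 genes Cxcr4, Ccr7, S1pr1, Klf2, Cd69, Cxcr5 and Cxcr3, which govern where lymphocytes go and when they leave a tissue, were followed through single-cell RNA sequencing of mouse lung leukocytes. They were matched by symbol among the 32285 genes of the deposited count tables, and all 7 were present. The genes had been chosen by these same levels, with results of these data in view, so their values are given as a description and no test was made on them. There were 3 libraries, 1 per condition, each made from cells of 2 pooled mice on the C57BL/6J (B6) background. The naive library came from left lungs that were not transplanted. In both transplant conditions a B6 (CD45.2) left lung was placed in a B6 (CD45.1) recipient after 60 minutes of storage at 4 °C and 45 minutes at 28 °C, and was taken 2 hours or 3 days after reperfusion. Cells were stained for CD45.2 and CD45.1, and the study's text describes sorting of recipient (CD45.1) cells. The study lists its B6 CD45.1 mice as the congenic strain B6.SJL, so recipient cells and naive cells also differ in strain. The sources used here state no gate for the naive library. With 1 library per condition, differences between conditions are differences between single libraries. They cannot be told apart from differences between mice, strains, cell preparations or library preparations. For the naive library they also cannot be told apart from counting software or the lack of antibody counts. Its cells came from lungs that were not transplanted, whereas the transplant cells are described as sorted recipient cells. The kit of each library was not settled from the sources used here.

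Lymphocytes move between blood, lymphoid organs and tissues by following chemokines and the lipid sphingosine 1-phosphate. CXCR4 is the receptor for CXCL12 and holds cells in bone marrow and other tissues, CCR7 follows CCL19 and CCL21 into lymph nodes, CXCR5 follows CXCL13 into B cell follicles, and CXCR3 follows interferon-induced chemokines into inflamed tissue. S1PR1 senses sphingosine 1-phosphate and lets lymphocytes leave lymph nodes and the thymus. KLF2 is a transcription factor of resting lymphocytes that drives S1pr1. CD69, an early activation antigen, binds S1PR1 and removes it from the cell surface.

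Of the 7 genes, 3 had a promoter in the RefSeq set used here, and the 250 bases upstream of the RefSeq start are given on GRCm38.p6. They are shown because both genes with the broadest difference at 2 hours, Cxcr4 and Klf2, are among them, with Cxcr3, which did not share it, beside them. Each is written 5′ to 3′ on the strand of the gene, and capitals mark matches, on either strand, to the KLF box CACCC or to the glucocorticoid receptor hexamer TGTTCT.
Cxcr4, chr1:128592300-128592549, minus strand: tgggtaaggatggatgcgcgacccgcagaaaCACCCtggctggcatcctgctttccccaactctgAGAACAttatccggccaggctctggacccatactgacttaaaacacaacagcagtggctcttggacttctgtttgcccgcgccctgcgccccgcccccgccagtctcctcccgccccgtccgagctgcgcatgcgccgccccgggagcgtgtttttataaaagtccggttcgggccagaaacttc
Klf2, chr8:72318812-72319061, plus strand: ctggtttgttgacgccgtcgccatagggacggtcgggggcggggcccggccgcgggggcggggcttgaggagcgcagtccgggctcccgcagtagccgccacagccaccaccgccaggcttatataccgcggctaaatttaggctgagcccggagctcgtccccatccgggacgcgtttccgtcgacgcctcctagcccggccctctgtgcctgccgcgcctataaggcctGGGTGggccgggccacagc
Cxcr3, chrX:101734148-101734397, minus strand: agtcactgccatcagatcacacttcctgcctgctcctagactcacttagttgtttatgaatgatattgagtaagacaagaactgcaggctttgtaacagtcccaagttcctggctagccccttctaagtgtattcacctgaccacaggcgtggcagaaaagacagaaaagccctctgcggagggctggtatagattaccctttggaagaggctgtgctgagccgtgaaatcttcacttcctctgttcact
The Cxcr4 window held CACCC at position -219 and, on the opposite strand, TGTTCT at -185, counted from the start. The Klf2 window held CACCC on the opposite strand at -19. The gene positions given below are from GENCODE, and by these the Klf2 and Cxcr3 windows reach into the gene. The Klf2 match then lies within the gene. CACCC was found in 52.0% of 32851 promoters of this length, and TGTTCT in 16.1%. The Cxcr3 window held neither. None of the 3 windows held the AP-1 site TGANTCA, the hypoxia response core ACGTG or the FOXO site TGTTTAC, which were found in 6.75%, 16.6% and 3.17% of promoters. GC content was 61.2% for Cxcr4, 71.2% for Klf2 and 48.0% for Cxcr3, against a median of 52.4%. A match is a description of the letters and not evidence of a binding site. Promoters of Ccr7, S1pr1, Cd69 and Cxcr5 were not analysed here.

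The naive library held 2921 cells with 28538529 gene UMIs (unique molecular identifiers), the 2-hour library 10328 cells with 10749100 and the 3-day library 9016 cells with 70750470. After filtering, naive cells had a median of 7298 UMIs, 2-hour cells 878 and 3-day cells 5716. The libraries shared 8, 1 and 23 cell barcodes in the pairs naive and 2 hours, naive and 3 days, and 2 hours and 3 days. B-like, T-like and NK-like cells, named from clusters by marker genes and called B, T and NK cells hereafter, numbered 555, 576 and 516 in the naive library. There were 1416, 2475 and 1051 of them at 2 hours and 1904, 709 and 326 at 3 days. Each cluster of these cells came almost entirely from 1 library. B cells lay in clusters 12, 4 and 2 for naive, 2 hours and 3 days, NK cells in clusters 13, 6 and 22, and T cells in cluster 11, in clusters 3, 10 and 20 and in cluster 8. At 2 hours T cell cluster 3 was led by the immunoglobulin gene Iglc3, while all 10 T cell markers stood out in it, and cluster 10 was led by Cd3e and Il7r. The B cell markers, 9 in all, summed to 13156, 4897 and 7744 counts per 1000000 UMIs (CPM) in naive, 2-hour and 3-day B cells and to at most 308 CPM in T and NK cells.

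At 2 hours 3 of the 7 genes in B cells and 4 in T and NK cells were more than 2-fold above naive, whereas at 3 days 0 were in B and T cells and 1 in NK cells. Levels are a gene's UMIs, added up across all cells of that type and library, divided by all UMIs of those cells and given as CPM. Their 95% intervals are exact Poisson intervals. A gene was counted as higher or lower where its CPM differed by more than 2-fold and at least 50 UMIs were counted in both libraries together. In B cells Cxcr4, Ccr7 and Klf2 were higher and Cxcr5 was lower at 2 hours than in naive, where 7.49% of 7930 genes were higher and 31.6% lower. The same genes differed in the same directions from 3 days, where 5.60% of genes were higher and 16.7% lower at 2 hours. In T cells Cxcr4, Ccr7, Klf2 and Cd69 were higher and Cxcr3 was lower at 2 hours than in naive, against 7.09% and 28.4% of genes. Against 3 days, Cxcr4 and Klf2 were higher and Cxcr5 was lower in T cells, against 7.59% and 10.6% of genes. In NK cells 5 of the 7 genes had 50 UMIs, and Cxcr4, Ccr7, Klf2 and Cd69 were higher at 2 hours than in naive, against 6.60% of genes, and than at 3 days, against 5.59%.

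Between 3 days and naive, none of the 7 genes passed 2-fold in B cells, where 6.30% of genes were higher and 18.5% lower at 3 days, or in T cells, where 4.65% were higher and 20.1% lower. In NK cells Ccr7 was higher, where 3.92% of genes were higher and 17.8% lower. These values chose the genes, so the counts beside the background are read no further. The median log2 ratio over all genes was not 0: for 2 hours to naive it was -0.42 in B cells, -0.36 in T cells and -0.35 in NK cells, and for 2 hours to 3 days -0.30, -0.14 and -0.24. The members with 50 UMIs had medians of 0.76, 1.03 and 1.97 for 2 hours to naive and 0.66, 0.87 and 1.66 for 2 hours to 3 days. Both comparisons share the 2-hour library. With CPM taken only over genes with under 10 kb of introns, the log2 ratios of 2 hours to naive in B cells were 3.03 for Cxcr4, 0.56 for Ccr7 and 0.52 for Klf2, so that Cxcr4 was the only 1 of them past 2-fold. The naive library was counted with another version of Cell Ranger than both transplant libraries, and the part of that in these ratios was not tested.

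**Figure D1:**
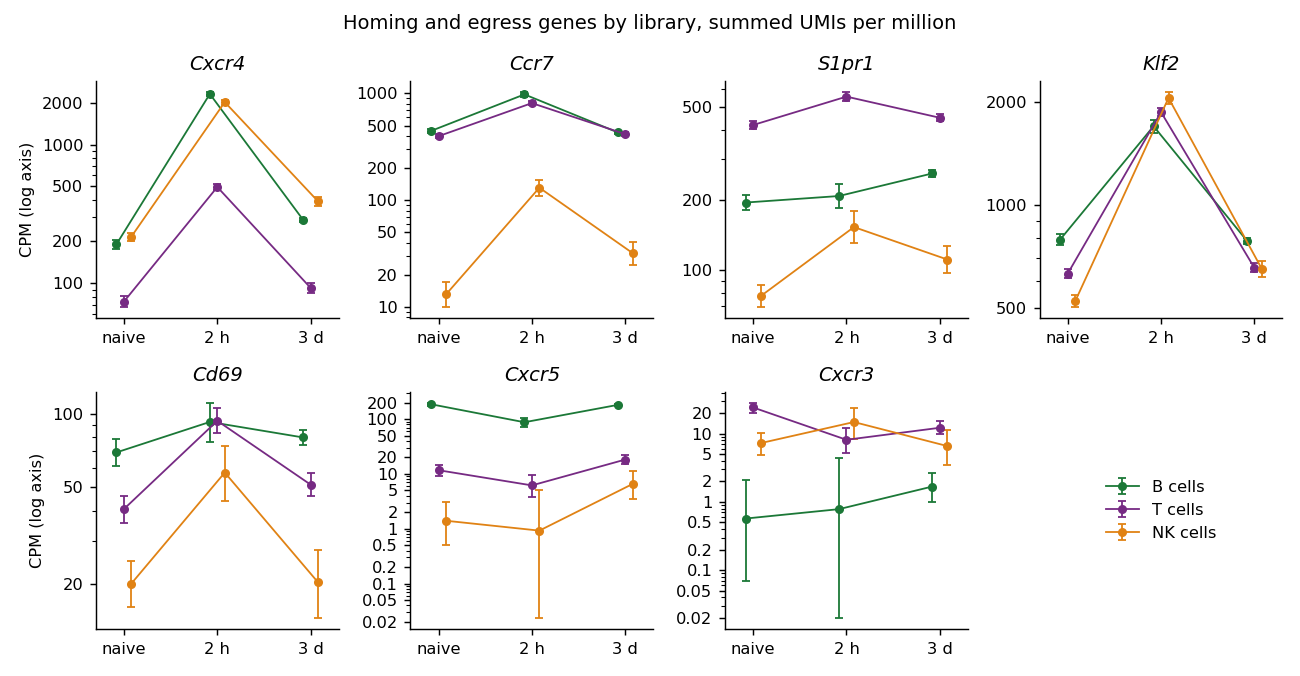
Level of each gene in CPM (log axis) by library, for B, T and NK cells. Points are sums over the cells of 1 library and bars are 95% Poisson intervals. Cxcr4 and Klf2 peaked at 2 hours in all 3 cell types, and Cxcr5 was lowest in B cells at 2 hours.

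Cxcr4 (ENSMUSG00000045382, chromosome 1, 128588199 to 128592293 on GRCm38, minus strand) showed the widest difference in B and T cells. B cells held 191 CPM of it when naive, 2326 CPM after 2 hours and 286 CPM after 3 days. The 2-hour level was 12.2-fold that of naive (log2 ratio 3.61, 95% interval 3.49 to 3.73) and 8.13-fold that of 3 days (3.02, 2.95 to 3.10). NK cells had 217, 2032 and 389 CPM in the same order. T cells had less Cxcr4 throughout, with 73.6 CPM when naive, 495 CPM after 2 hours and 92.3 CPM after 3 days. Their log2 ratio of 2 hours to naive was 2.75 (95% interval 2.60 to 2.91). B and NK cells of the naive library could not be ordered within their intervals, while T cells were below both in every library.

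Because cells of the 2-hour library were far shallower, cells were also compared at equal depth, with 500 UMIs drawn from each. Cxcr4 was then found in 10.8% of naive B cells (exact Clopper-Pearson 95% interval 8.35% to 13.7%), 54.3% at 2 hours (51.6% to 56.9%) and 12.9% at 3 days (11.4% to 14.5%). In NK cells the shares were 7.95%, 53.8% and 16.9%, and in T cells 3.65%, 17.4% and 3.39%. Without drawing, 49.7% of naive B cells and 65.9% of those at 2 hours had a Cxcr4 UMI. The share with at least 2 UMIs among 500 was 0.721% in naive B cells and 29.3% at 2 hours. Counted per cell and not per UMI, a B cell held a mean of 1.2 Cxcr4 UMIs when naive, 2.10 after 2 hours and 1.61 after 3 days, while its UMIs of all genes were 6317, 901 and 5629.7. Cxcr4 was the only 1 of the 7 genes whose mean count per B cell was highest in the shallow 2-hour library.

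Outside lymphocytes the size of the difference varied by cell type. Neutrophil-like cells of the named clusters had high Cxcr4 in all libraries, with 952 CPM in naive, 1271 CPM at 2 hours and 1009 CPM at 3 days. Their shares at equal depth, 38.4%, 34.9% and 37.1%, overlapped within counting error. Basophil or mast cell-like cells had the highest level of any named type, 4387 CPM at 2 hours (95% interval 3963 to 4844, 68 cells) against 759 CPM at 3 days (112 cells), with too few cells in the naive library to be compared. Among the named types at 2 hours the order of levels was basophil or mast cell-like, B, NK, neutrophil-like and T cells, and no neighbouring intervals overlapped. The largest unnamed cluster at 2 hours, of 2925 cells closest to neutrophils by markers, had 2116 CPM. Its 95% interval, 2059.8 to 2174 CPM, overlapped that of NK cells, 1948 to 2119 CPM. At a resolution of 0.4 a cluster with 4397 cells of the 2-hour library was named neutrophil, against 1466 neutrophil-like cells here. The neutrophil-like level at 2 hours and its place in the order therefore depend on which clusters were named. In named clusters, monocyte-like and macrophage-like cells reached 50 cells only at 3 days and had 266 to 383 CPM. Alveolar macrophages of the naive library had 73.1 CPM, within the interval of T cells. Unnamed clusters 14 and 27 were closest to nonclassical monocytes by markers. Cluster 14 held 450 cells of the 2-hour library, with 1725 CPM of Cxcr4 (95% interval 1631 to 1822). Cluster 27 held 137 cells of the naive library, with 275 CPM (251 to 301). Whether both hold the same kind of cell was not tested. Another unnamed cluster closest to nonclassical monocytes is described below. Endothelial cells caught in the sort had 36.3 CPM in naive (10 UMIs, 95% interval 17.4 to 66.7) and 202 CPM at 3 days (169 to 240.0). With 1000 UMIs drawn, the shares with Cxcr4 were 7.02% and 12.1%. At a resolution of 1.2 the endothelial cluster held 168 cells of the 3-day library, against 297 here.

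**Figure D2:**
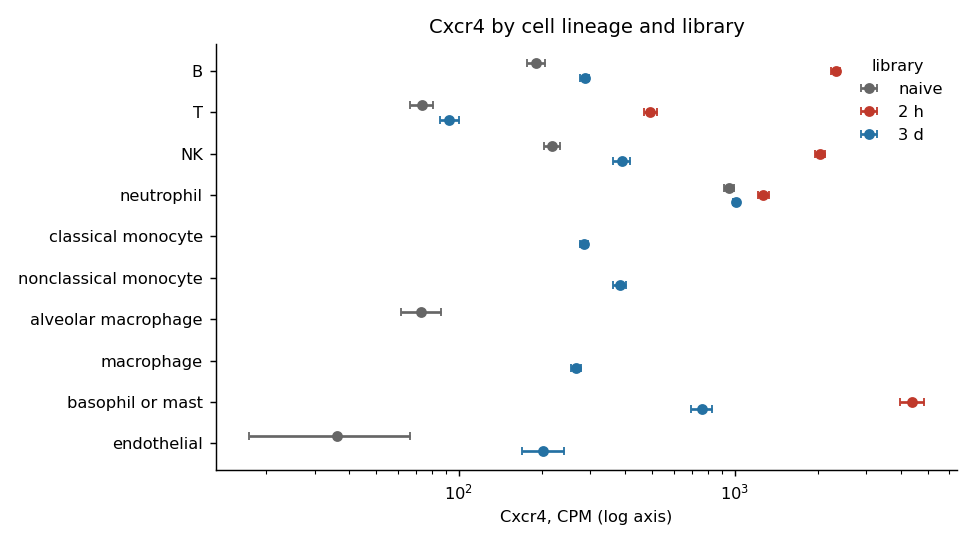
Cxcr4 in CPM (log axis) by named cell type and library, for types with at least 50 cells in a library, with 95% Poisson intervals. The 2-hour points of B, NK and basophil or mast cell-like cells lie right of all other points. Neutrophil-like cells of the named clusters come next, between 952 and 1271 CPM in all 3 libraries. Unnamed clusters are not shown.

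Neutrophil markers, 7 in all, moved with the time of reperfusion in lymphocytes. They summed to 217, 2109 and 1811 CPM in B cells, 692, 1575 and 1184 CPM in T cells and 356, 1658 and 4106 CPM in NK cells, in the order naive, 2 hours, 3 days, with 6 or 7 of the 7 detected. Neutrophil-like cells themselves held 72986 CPM of them at 2 hours. With cells holding markers of another lineage removed, the log2 ratio of Cxcr4 in B cells was 3.62 for 2 hours to naive.

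Ccr7 (ENSMUSG00000037944, chromosome 11, 99144196 to 99155077, minus strand) stood at 446, 981 and 432 CPM in B cells in that order. T cells had 398, 813 and 416 CPM. The log2 ratio of 2 hours to naive was 1.14 (95% interval 1.03 to 1.25) in B cells and 1.03 (0.95 to 1.11) in T cells. At equal depth Ccr7 was found in 18.6%, 36.3% and 18.3% of B cells and in 17.9%, 30.2% and 21.0% of T cells. Naive and 3-day levels overlapped within counting error in both cell types.

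NK cells had far less Ccr7, with 13.1, 131 and 31.9 CPM. Neutrophil-like cells, which should lack it, had 2.23, 31.8 and 17.8 CPM. At equal depth 3.17% of NK cells at 2 hours had a Ccr7 UMI against 0.849% of neutrophil-like cells, where the median depths were 852 and 797 UMIs. T cell markers, 10 in all, all detected, summed to 606, 1704 and 729 CPM in NK cells, against 3721 CPM in T cells at 2 hours. Il7r, the interleukin 7 receptor of naive and memory T cells, was 7.49, 276 and 38.5 CPM in the same NK cells. The part of T cells in the NK values of Ccr7 and of the other members was not tested. When NK cells were called cell by cell, the Ccr7 log2 ratio of 2 hours to naive fell from 3.32 to 1.92. That of 2 hours to 3 days fell from 2.04 to 1.2. With no filter on cells as well, these were 1.67 and 0.70, the latter within 2-fold.

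Cxcr5 (ENSMUSG00000047880, chromosome 9, 44511787 to 44561877, minus strand) was mainly a B cell transcript and went the other way. B cells had 187, 87.7 and 182 CPM. On the log2 scale the 2-hour level differed by -1.09 (95% interval -1.39 to -0.80) against naive and -1.05 (-1.34 to -0.77) against 3 days. At equal depth the shares were 7.93%, 4.2% and 9.45%. T cells had 11.7, 6.18 and 18.3 CPM, beside 25.0, 5.18 and 7.23 CPM in neutrophil-like cells, so the T cell levels of naive and 2 hours did not stand above that background. NK cells had at most 6.58 CPM. Both B cell values lay near the 2-fold limit and fell inside it under several other settings, and relative to the median gene they were -0.67 and -0.75. With 46.8 kb of introns, Cxcr5 was also the only 1 of the 7 genes with more than 10 kb, and intron length moved with the naive library: in B cells the median log2 ratio of 2 hours to naive was 0.29 for genes with under 10 kb of introns and -2.20 for those with over 100 kb. For 2 hours to 3 days, counted with the same software, these medians were -0.11 and -0.54. Cxcr5 itself belongs to neither group of genes. For 3 days to naive its B cell log2 ratio was -0.04 (95% interval -0.17 to 0.09), where the medians were 0.37 and -1.70. The part of intron length in the Cxcr5 values was not tested.

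Cxcr3 (ENSMUSG00000050232, chromosome X, 101731535 to 101734269, minus strand) was scarce. T cells had 24.2 CPM in naive (141 UMIs), 8.13 CPM at 2 hours (25 UMIs) and 12.2 CPM at 3 days (82 UMIs). The log2 ratio of 2 hours to naive was -1.58 (95% interval -2.25 to -0.96). NK cells had 7.26, 14.8 and 6.58 CPM from 31, 16 and 13 UMIs, and B cells at most 1.68 CPM, below the 1.85 CPM of neutrophil-like cells at 3 days. The highest level was in a cluster kept out of the T cells: cluster 21, with 346 cells at 3 days, was closest to T cells by markers but led by Ikzf2, Rora, Il5, Icos and Cxcr6, and had 87.5 CPM of Cxcr3 (95% interval 76.8 to 99.3). It held 127 CPM of Ccr7 and 223 CPM of Cxcr4, against 418 and 88.7 CPM in the T cell cluster of 3 days. With it counted among T cells, a choice made after seeing the data, the log2 ratio of Cxcr3 between 3 days and naive turned from -0.99 to 0.50. Ccl5, a chemokine of memory and effector T cells, was 1519, 110.3 and 314 CPM in T cells.

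**Figure D3:**
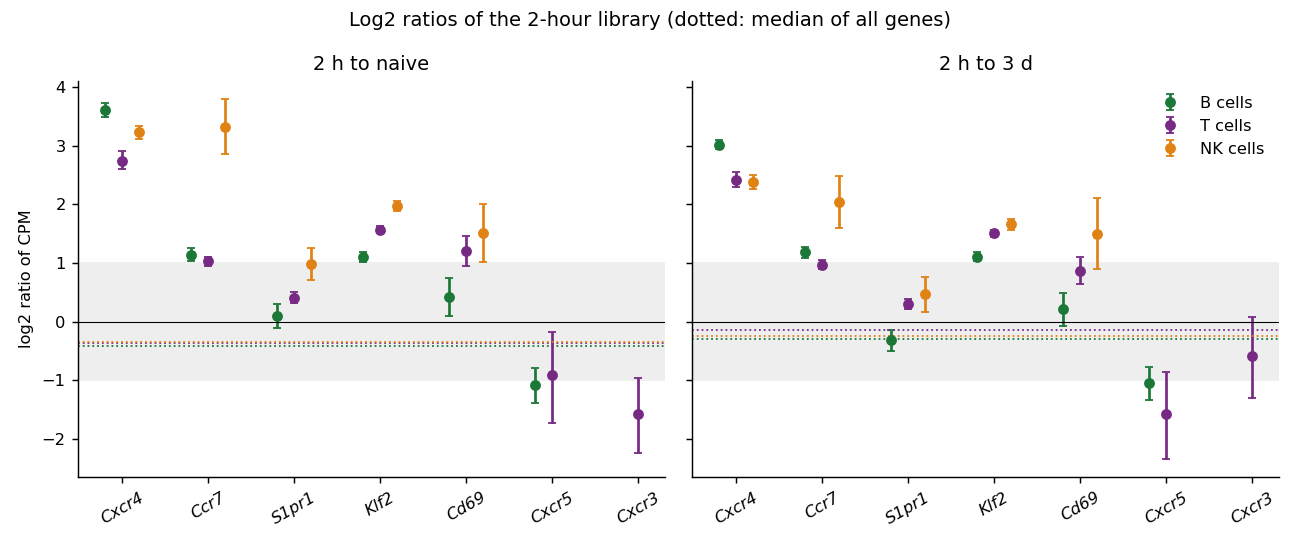
Log2 ratio of CPM of the 2-hour library to naive (left) and to 3 days (right) for each gene with at least 50 UMIs, in B, T and NK cells, with exact conditional 95% intervals. The grey band is 2-fold, and dotted lines are the median of all genes of that cell type, between -0.42 and -0.14. Cxcr4 lies above 2 in every panel, Cxcr5 and Cxcr3 lie below 0.

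S1pr1 (ENSMUSG00000045092, chromosome 3, 115710433 to 115715072, minus strand), the egress receptor, differed little in B and T cells. In NK cells it differed by up to 1.99-fold. In T cells it had 419.8, 556 and 451 CPM from naive to 3 days, in B cells 195, 208 and 260.1 CPM and in NK cells 77.2, 153 and 111 CPM. For 2 hours to 3 days the log2 ratio was 0.30 (95% interval 0.22 to 0.39) in T cells and -0.32 (-0.51 to -0.14) in B cells. At equal depth the shares were 19.6%, 24.6% and 21.0% of T cells and 9.19%, 9.28% and 13.2% of B cells. No S1pr1 ratio passed 2-fold in B, T or NK cells with the processing used for these values. The NK ratio of 2 hours to naive, 0.99, was past 2-fold at 1.34 when centred on the median gene. It was -0.21 when cells were called cell by cell, with T cell markers in NK cells as given for Ccr7.

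Klf2 (ENSMUSG00000055148, chromosome 8, 72319033 to 72321656, plus strand), the regulator of S1pr1, was higher at 2 hours in all 3 lymphocyte types. In B cells the level went from 794 CPM when naive to 1701 CPM after 2 hours and 787 CPM after 3 days. T cells had 631, 1869 and 656 CPM, and NK cells 524, 2056 and 651 CPM. The log2 ratios of 2 hours to naive were 1.10 (95% interval 1.02 to 1.18) in B cells, 1.57 (1.51 to 1.63) in T cells and 1.97 (1.89 to 2.06) in NK cells. At equal depth 29.4%, 47.2% and 31.6% of B cells, 27.8%, 47.7% and 25.8% of T cells and 22.7%, 47.1% and 26.7% of NK cells had a Klf2 UMI. Neutrophil-like cells had 239, 791 and 576 CPM, higher at both times after transplantation than in naive. So at 2 hours nearly equal shares of B, T and NK cells held Klf2, while S1pr1 kept its order of T above B above NK.

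Cd69 (ENSMUSG00000030156, chromosome 6, 129267325 to 129275436, minus strand) was low in lymphocytes. B cells had 69.3, 92.4 and 79.8 CPM, T cells 40.6, 93.4 and 51.1 CPM and NK cells 20.1, 57.3 and 20.3 CPM in naive, at 2 hours and at 3 days. Its T cell log2 ratio of 2 hours to naive was 1.2 (95% interval 0.95 to 1.46). That of B cells, 0.42, depended on how B cells were chosen and counted: it was 1.23 with cells called cell by cell, 1.24 with these and no filter on cells, 1.11 at a resolution of 0.4 and -0.17 over genes with under 10 kb of introns. In NK cells the log2 ratio of 2 hours to naive was 1.51 (95% interval 1.01 to 2.00), and 0.98 over genes with under 10 kb of introns. At equal depth the shares of T cells, 2.60%, 3.54% and 2.54%, overlapped within counting error. So did those of NK cells, 1.74%, 1.98% and 1.23%. Basophil or mast cell-like cells had the most Cd69, with 999 CPM after 2 hours and 831 CPM after 3 days, whose intervals overlapped too.

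Within the 2-hour library, Klf2 and Cd69 were highest in lymphocytes with heat-shock transcripts. T cell cluster 20, of 339 cells led by the heat-shock chaperone genes Hspa1a, Hspa1b, Hsph1 and Dnajb1, had 5561 CPM of Klf2, against 1314 CPM in cluster 3 and 1174 CPM in cluster 10. Its Cd69, which was among its leading genes, was 360.4 CPM against 51.3 CPM in cluster 10 and a 95% interval of 40.4 to 61.2 CPM in cluster 3. Cxcr4 was 786 CPM against 459 and 425 CPM. S1pr1 went the other way, 388 CPM against 584 and 581 CPM, and Ccr7 did not differ beyond counting error, 843 CPM against 833 and 747 CPM. These clusters had similar median depths of 1155, 1107 and 1154 UMIs. Fos, an immediate-early gene, was 1814 CPM in cluster 20 and 213 and 188 CPM in the others. Cells were clustered on all these genes, so the contrast between clusters is a description.

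Klf2, Cd69 and Cxcr4 were also high in B-called cells of a cluster without a name. Cluster 17, led by Hspa1a, Hspa1b and surfactant genes, was closest to nonclassical monocytes by markers and held 308 cells of the 2-hour library. Of these, 181 carried B cell transcripts when called cell by cell. That call did not exclude cells with myeloid transcripts, so a mixture with other cells was not tested. The levels that follow are those of the 181 cells. The B-called cells had 9321 CPM of Klf2 (95% interval 8859.8 to 9801), 452 CPM of Cd69 and 4481 CPM of Cxcr4, against 1703, 92.7 and 2327 CPM in B cell cluster 4. Their Fos was 3858 CPM against 261 CPM. Unlike in T cell cluster 20, S1pr1 was higher, 317 CPM against 208 CPM in cluster 4, and so was Ccr7, 1282 CPM (95% interval 1114 to 1468) against 981 CPM (927 to 1037). At 3 days 24 B-called cells of cluster 17 had 4848 CPM of Klf2, 615 CPM of Cd69 and 1317 CPM of Cxcr4. These cells stand outside the B cell values given above.

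**Figure D4:**
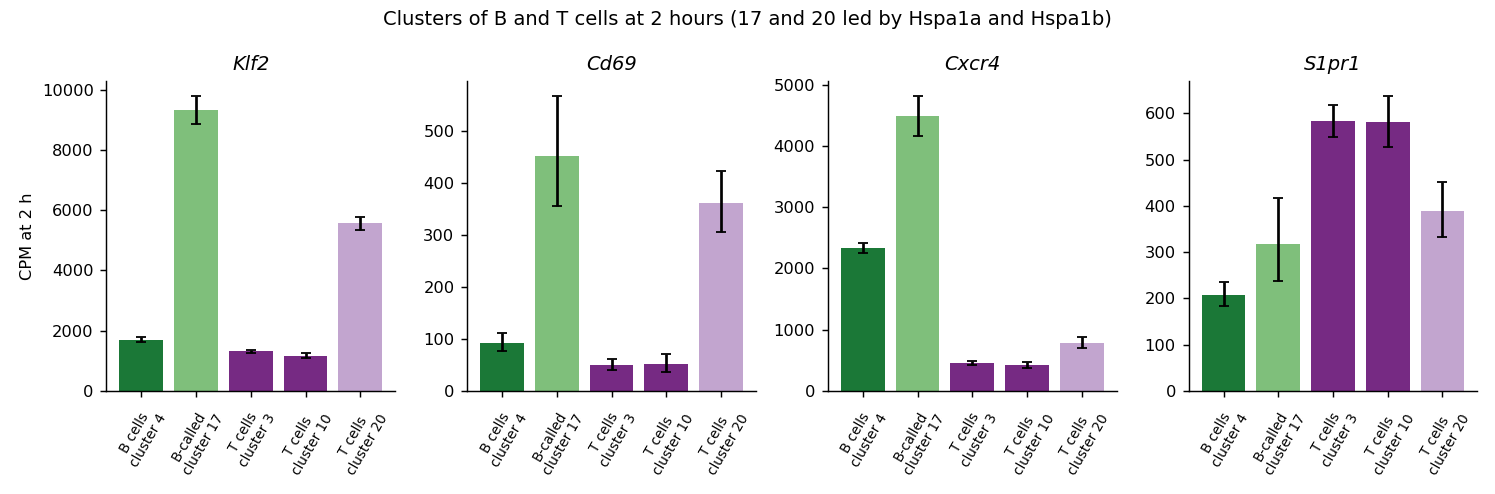
Klf2, Cd69, Cxcr4 and S1pr1 in CPM in the clusters of B and T cells at 2 hours, with 95% Poisson intervals. Clusters 17 (B-called cells) and 20 (T cells), both led by Hspa1a and Hspa1b, reached 9321 and 5561 CPM of Klf2, whereas the other 3 clusters lay at 1174 to 1703 CPM.

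For Klf2 the difference was also present cell by cell at equal depth in T and NK cells. At 2 hours 83.1% (95% interval 77.1% to 88.1%) of the 195 T cells with an Hspa1a or Hspa1b UMI among 500 had a Klf2 UMI, against 44.7% of the 2266 without. For NK cells the shares were 88.1% of 42 and 45.4% of 968. In B cells by themselves 63.2% of 19 (95% interval 38.4% to 83.7%) had a Klf2 UMI against 47.0% of 1339, which overlapped within counting error. With the B-called cells of cluster 17 added, which heat-shock genes led, the shares were 85.4% of 123 and 49.3% of 1413. Cd69 was found in 8.72% of T cells with such a UMI and 3.09% without, in 5.26% and 4.41% of B cells by themselves, and in 10.6% and 5.17% of B cells with those of cluster 17. For Cxcr4 the shares were 63.2% and 54.1% in B cells by themselves, 68.3% and 55.3% with those of cluster 17, 23.6% and 16.9% in T cells and 45.2% and 54.1% in NK cells. Cells with an Hspa1a or Hspa1b UMI made up 7.92% of T cells at 2 hours against 1.74% in naive. Of B cells they were 1.40% against 1.44%, and 8.01% at 2 hours with those of cluster 17. Among cells without one, Klf2 was in more T cells at 2 hours than in naive, 44.7% against 27.7%, and in more B cells, 47.0% against 29.1%. Fewer T cells had such a UMI, 195, than the 339 of cluster 20, so cells of that cluster remain among those without. This split therefore does not set all heat-shock cells apart.

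Leaving cluster 20 out of the T cells, also a choice made after seeing the data, lowered the Klf2 log2 ratio of 2 hours to naive from 1.57 to 1.01 and that of 2 hours to 3 days from 1.51 to 0.96. The Cd69 ratios went from 1.2 to 0.31 and from 0.87 to -0.02. Cd69 was among the genes that led cluster 20, so the values without it are a description and no test. Cxcr4 moved only from 2.75 to 2.61. Adding the B-called cells of cluster 17 to the B cells raised their Klf2 ratio of 2 hours to naive from 1.10 to 1.69 and their Cd69 ratio from 0.42 to 0.94. The part of the heat-shock transcripts in these differences was not tested.

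Subsets of T cells were called from Cd4, Cd8a, Cd8b1 and Foxp3 UMIs, which at the depth of the 2-hour library left 1900 of 2475 cells uncalled. CD4 T cells had 57.8, 528 and 71.7 CPM of Cxcr4 and CD8 T cells 69.9, 428 and 101 CPM. Regulatory T cells of the 2-hour library, 41 cells, had 1352 CPM (95% interval 1079 to 1674), above both other subsets. Klf2 was 692, 1621 and 664 CPM in CD4 and 627, 2000.0 and 666 CPM in CD8 T cells. Ccr7 in CD8 T cells was 451, 909 and 376 CPM, and in CD4 T cells 423, 576 and 461 CPM, a smaller difference. Cd69 in CD8 T cells was 39.1, 146 and 56.4 CPM. Cxcr3 in CD8 T cells was 27.1 CPM in naive, 3.40 CPM at 2 hours from 2 UMIs and 15.2 CPM at 3 days.

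Only some pairs of members were compared. In several of them the second gene was about as frequent in cells with the first as in cells without it. At 2 hours Klf2 was in 48.4% of B cells with a Cxcr4 UMI among 500 and in 45.7% of those without, and Ccr7 in 36.1% and 36.6%. S1pr1 was in 9.67% of B cells with Klf2 and 8.93% of those without, and in 23.8% and 25.3% of T cells. Cd69 with Klf2 differed: at 2 hours Klf2 was in 74.7% (95% interval 64.3% to 83.4%) of the 87 T cells with Cd69 and in 46.8% of those without. In NK cells these shares were 75.0% of 20 cells and 46.6%, and in B cells 58.3% of 60 cells and 46.7%, the last overlapping within counting error. These shares are counts of cells within 1 library.

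Of 9 lists of related genes, drawn up with results of these data known, the immediate-early list had the most higher genes at 2 hours. Of 13 such genes 12 had 50 UMIs in B cells for 2 hours to naive, of which 7 were higher and 1 lower, and in T cells 8 of 12 were higher and 1 was lower. Against 3 days 6 of 13 were higher in B cells and 6 of 12 in T cells. Of all genes, 7.49% were higher and 31.6% lower in B cells against naive, and 7.09% and 28.4% in T cells. Against 3 days 5.60% of all genes were higher in B cells and 7.59% in T cells. B cells held 84.1, 262 and 79.0 CPM of Fos and T cells 51.1, 429.7 and 73.8 CPM. Junb, another AP-1 subunit, was 596, 1957 and 709 CPM in T cells. Fosb went the other way, 52.8 CPM at 3 days and 19.6 CPM at 2 hours in B cells. The median log2 ratios of the list for 2 hours to 3 days were 0.79 in B cells and 1.01 in T cells, beside -0.30 and -0.14 for all genes.

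Of the 20 other homing receptors, 3 of the 8 with 50 UMIs were higher and 1 lower at 2 hours than in naive in B cells, 3 of 12 higher and 3 lower in T cells, and 4 of 9 higher and 1 lower in NK cells, with median log2 ratios of -0.14, -0.11 and 0.33. For 2 hours to 3 days 2 of the 9 with 50 UMIs were higher and 1 was lower in B cells, with a median log2 ratio of -0.36, and 3 of 11 were higher and 1 lower in T cells. Those higher than at 3 days were Ccrl2 and Cxcr2 in both and Ccr1 in T cells, receptors best known from myeloid cells: Cxcr2 was 54.1 CPM in B cells at 2 hours and 21.6 CPM at 3 days, beside the neutrophil markers given above. Ccr6, a receptor of mature B cells, was 87.8, 13.3 and 74.6 CPM in B cells. Of the other genes of sphingosine 1-phosphate, S1pr4 had 88.4, 59.5 and 100.1 CPM in B and 101, 87.5 and 94.7 CPM in T cells, and Spns2, a transporter of the lipid, was 10.2 CPM in B cells at 2 hours and 35.0 CPM at 3 days. For 2 hours to 3 days 1 of 5 was higher and 1 lower in B cells and 1 of 4 was lower in T cells. Of all genes, 7.49%, 7.09% and 6.60% were higher at 2 hours than in naive in B, T and NK cells, and 31.6%, 28.4% and 28.8% lower. Against 3 days 5.60% were higher and 16.7% lower in B cells, and 7.59% and 10.6% in T cells.

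For adhesion molecules no gene was higher at 2 hours. For 2 hours to 3 days 4 of 10 were lower in B cells and 4 of 11 in T cells, and 0 were higher in either. Itgal, a chain of the integrin LFA-1, was 142, 33.2 and 154 CPM in T cells. Itgb7 was 103, 15.7 and 91.9 CPM in B cells, and Cd44 was 39.4 CPM in T cells at 2 hours and 139 CPM at 3 days. Of all genes, 16.7% in B cells and 10.6% in T cells were lower at 2 hours than at 3 days. The other background shares are those given for the members.

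Among genes of G protein signalling and receptor desensitization more were lower than higher at 2 hours. For 2 hours to 3 days 1 of 14 was higher and 6 were lower in B cells, and 1 of 14 was higher and 5 were lower in T cells. More genes were also lower than higher over all genes, 16.7% against 5.60% in B cells and 10.6% against 7.59% in T cells. The gene that was higher was Rgs1, which dampens G protein signals of chemokine receptors, with 5.99, 29.0 and 8.30 CPM in B cells, 51.3, 110.3 and 26.1 CPM in T cells and 161, 582 and 264 CPM in NK cells. Grk6, a kinase that turns off chemokine receptors, was 79.9 CPM in B cells at 2 hours and 172 CPM at 3 days.

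Among 14 regulators of the KLF and FOXO families and their partners, 2 of 13 were higher and 3 lower in B cells, and 3 of 14 higher and 5 lower in T cells, for 2 hours to 3 days. Of all genes, 5.60% were higher and 16.7% lower in B cells, and 7.59% and 10.6% in T cells. The same shares apply to the other lists of this paragraph. Klf13 was 348, 782 and 351 CPM in T cells, and Tcf7, a factor of naive T cells, was 353, 583 and 281 CPM. Klf3 went the other way, 364, 153 and 349.6 CPM in T cells. Foxo3 was 89.0, 125 and 24.6 CPM in B cells. Of 8 glucocorticoid-response genes, for 2 hours to 3 days, 1 of 6 was higher and 1 lower in B cells and 2 of 6 higher and 1 lower in T cells. Fkbp5 was 48.8, 79.9 and 20.3 CPM in B cells, and Tsc22d3 was 339, 542 and 464 CPM. Of 8 genes of naive and memory T cells, 1 was higher and 2 were lower in T cells for 2 hours to 3 days. The 8 ligands of the member receptors had fewer than 50 UMIs in B, T and NK cells, and endothelial cells held the most of them, 442 CPM in naive and 247 CPM at 3 days.

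**Figure D5:**
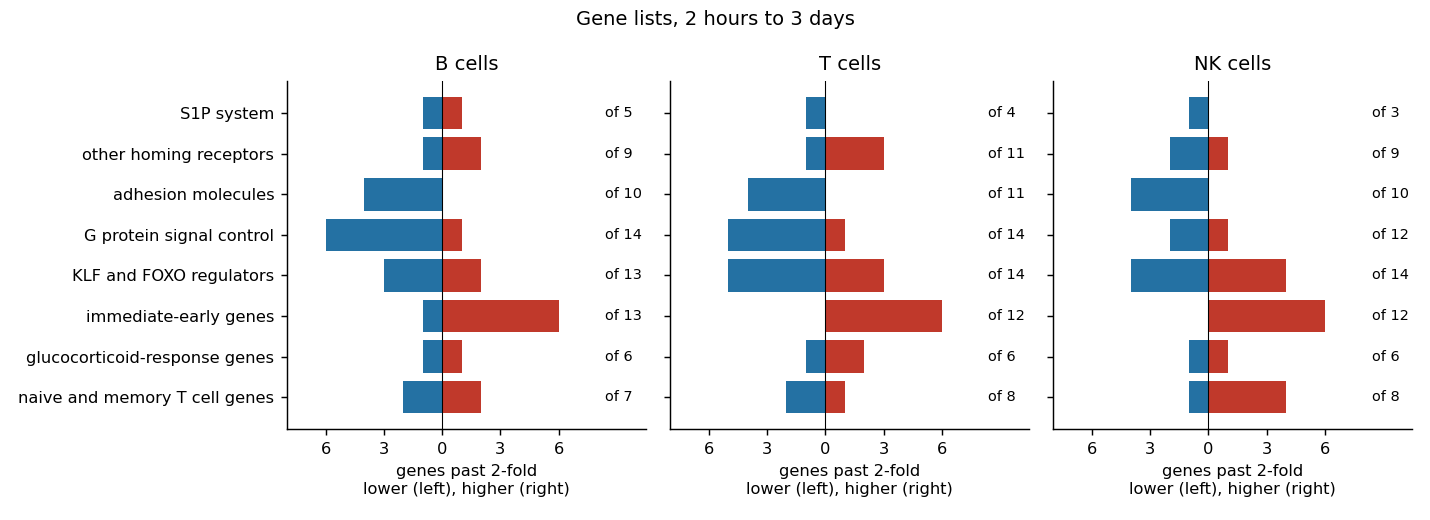
Number of genes of each list past 2-fold lower (blue, left) or higher (red, right) at 2 hours than at 3 days in B, T and NK cells, with the number that had at least 50 UMIs at the right. The immediate-early list has 6 higher genes in each cell type, and the adhesion list has 4 lower and 0 higher.

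Across 20 combinations of library and cell type, the pattern of each member was set beside those of 11122 genes by Pearson's correlation of log2 levels. Cxcr4 was most like Smndc1 (r = 0.94), Sephs2 (0.91) and Btg1 (0.88), and Klf2 most like Cirbp (0.91), Gigyf1 (0.89) and Cdkn1b (0.86). Ccr7 was most like Gm8369 (0.97), BE692007 (0.94) and Rhobtb2 (0.93), and S1pr1 most like Gimap6 (0.90), Ablim1 (0.88) and Pik3ip1 (0.86). Cxcr5 was nearest to the B cell genes Bank1 (0.94) and Pou2af1 (0.93), with Gm31243 (0.93) between them, and Cxcr3 to Lcn4 (0.94) and the T cell genes Cd28 (0.93) and Thy1 (0.92). Cd69 was nearest to Denr (0.91), Ccdc62 (0.91) and Mir155hg (0.90). The combinations share libraries and their depth, and no p-value was computed.

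Both transplant libraries also held counts of 277 antibodies, which gave no protein readout of the members. The antibodies named for CXCR4, CCR7, CD69 and CXCR3 had 0 UMIs in B, T and NK cells of both libraries, and that named for CXCR5 had 3, all in T cells at 2 hours. The panel bears names of human proteins, and 10 antibodies held 99.6% of its UMIs at 2 hours and 99.5% at 3 days. One of these, CD45R, which marks B cells in mice, took 403363 of 1000000 antibody UMIs in B cells at 2 hours and 7569 in T cells.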

How the data were processed

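The deposited files held unnormalized UMI counts of genes per cell, which the authors made with Cell Ranger, 7.1.0 for the naive and 6.0.0 for both transplant libraries per the file headers. The submitters' processing notes name mm10. The sources used here do not say if reads in introns counted. Per the study's methods, cells were kept that had over 200 and under 6000 genes, fewer than 25000 UMIs and less than 10% of them mitochondrial, and were normalized in Seurat 5.3.0 (R 4.3.3, sctransform 0.4.2), with 30 principal components and a resolution of 0.8. A cluster was named where the median log2 ratio of a type's markers and at least 3 of them exceeded 1 and no other type had more markers among its top 10 genes, leaving shallow clusters without own markers there unnamed. Counts were summed per library and type, and no p-value was computed, since each condition had 1 library. Intervals (95%) cover counting error only. Intervals of ratios are exact, given the summed count, computed with scipy 1.17.1 and tested on simulated data. Scrublet in scanpy 1.11.5 called doublets (40 naive, 403 at 2 hours and 277 at 3 days), which were removed only in an alternative. The members and all gene lists were chosen with earlier results of these data known. The rule for names took all members, up to 3 genes per list and direction by log2 of CPM plus 10 between 2 hours and 3 days in B or T cells, and the 3 genes most like each member. Gene positions are from GENCODE vM21, promoters from RefSeq.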

Additional observations from a re-analysis of the deposited data

Results flagged for a closer look

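By CPM, S1pr1 ran opposite ways between 2 hours and 3 days in different lymphocytes. Its log2 ratio of 2 hours to 3 days was -0.32 in B cells (208 and 260.1 CPM), 0.30 in T cells (556 and 451 CPM) and 0.47 in NK cells (153 and 111 CPM). The B cell ratio was therefore lower by 0.62 than that of T cells (-0.62) and lower by 0.79 than that of NK cells (-0.79). Each condition had 1 library, so the difference between cell types was not tested. The B cell ratio lay near the median of all genes in B cells, -0.30, and was -0.02 when centred on the median gene. The NK ratio turned to -0.03 with cells that held markers of another lineage removed and to -0.66 when cells were called cell by cell.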

How the results depend on the processing

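No member passed 2-fold in the direction opposite to its call under any alternative run, but calls were lost and gained. Of the ratios recomputed, 455 moved by less than their counting interval and 199 by more. Ratios of 2 hours to naive over genes with short introns fell to 0.56 for Ccr7 and 0.52 for Klf2 in B cells, and 0.63 for Ccr7 in T cells. Without the heat-shock cluster, Cd69 in T cells fell to 0.31 and Klf2 for 2 hours to 3 days to 0.96. Cxcr4 stayed past 2-fold at 2 hours in B, T and NK cells under each alternative, between 3.03 and 4.03, 2.35 and 3.22, and 2.70 and 3.58 on the log2 scale against naive. The 1 lower gene of B cells, Cxcr5, was past 2-fold in 5 of 12 alternatives in each comparison. The count of lower genes in B cells became 0 against naive and 0 against 3 days with cells called cell by cell (filtered or not), doublets removed, ratios centred on the median gene, a resolution of 0.4, or the B-called heat-shock cells added. It became 0 against naive outside ribosomal, mitochondrial and immunoglobulin genes, 0 against 3 days with a mean over cells, and 2 against 3 days with no minimum of UMIs. Over genes with under 10 kb of introns, the count of higher genes at 2 hours against naive was 1 in B and 2 in T cells, and that of lower genes in T cells 2, with 1 lower at 3 days. Centring gave 4 higher genes in T cells for 2 hours to 3 days, and leaving out the heat-shock cluster gave 1. Centring also took S1pr1 in NK cells past 2-fold for 2 hours to naive, from 0.99 to 1.34. Lower genes in T cells for 2 hours to 3 days were 2 with cells called cell by cell (filtered or not), at resolutions of 0.4 and 1.2, and with the unnamed cluster closest to T cells. They were 2 against naive with clustering without the members. Between 3 days and naive, T cells had 1 higher gene with cells called cell by cell, and 1 lower gene with cells holding other markers removed or with a mean over cells. NK cells then had 0 higher genes with cells called cell by cell (filtered or not), with cells holding other markers removed and on genes with short introns. With no minimum of UMIs, NK cells had 2 higher genes and, for 2 hours to 3 days, 1 lower, and B cells had 1 higher at 3 days. The share of all genes past 2-fold under each alternative is not given here, so these counts are a description and are read no further. The causes were not tested. Drawing 1000 UMIs in place of 500 moved 49 shares beyond their interval and left 14 within it. A deeper draw finds a gene in more cells and leaves out cells under 1000 UMIs. It kept 329 of the 1416 B cells of the 2-hour library. These moves therefore cannot show how far the shares depend on processing. The alternatives on heat-shock cells and on the unnamed clusters were chosen after seeing the data. The depth of the 2-hour library limits its scarce genes, such as Cxcr3 with 25 UMIs in T cells. No paired analysis was possible because each condition had 1 library.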
